A study of Homo sapiens with 12 samples.

Results

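The genes described here are those of 2 extracellular signalling systems in HEYA8, a human line derived from ovarian cancer: fibroblast growth factor (FGF) ligands with their carrier and co-receptors, and the chemokine receptors of the CXCL12 axis. The 9 genes are FGFBP1, FGF1, FGF2, FGF5, SDC1, SDC4, ACKR3, CXCR4 and CXCL12. They were found by matching the Ensembl identifiers of the deposited expression table to gene symbols, and 8 of the 9 were measured among the 21207 genes of the table; CXCL12 was not analysed here. FGFBP1 and ACKR3 were chosen on their own measured values, a large difference between drug and vehicle and a large spread between cultures in these same libraries, so both are described without a test.

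All groups were HEYA8 cells kept in DMEM with fetal bovine serum and antibiotics and treated for 48 h. The 4 groups received vehicle, 1 µM, 5 µM or 10 µM of colforsin daropate and hold 3 libraries each. The drug, made from the plant diterpene forskolin to dissolve in water, switches on adenylyl cyclases and so increases cyclic AMP in cells. The title of the series places the work in MYC-driven high-grade serous ovarian carcinoma, and the design compares each dose with vehicle. Each library carries a number, 6, 8 or 11, that recurs in every group; what the number marks is not stated in the labels, and it is called the label number here. The model is 1 cell line in culture, grown without the stromal cells that are a main source of CXCL12 in tissue.

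FGFs are secreted proteins that bind heparan sulfate tightly and stay close to the cell surface and matrix. FGFBP1 is a secreted carrier that binds FGF1 and FGF2 and can release them from that store, while heparan sulfate chains on syndecans such as SDC1 and SDC4 help the ligands engage FGF receptors on the cell surface. CXCL12 is a chemokine that signals through the G-protein-coupled receptor CXCR4, and ACKR3 is an atypical receptor that binds the same ligand, recruits arrestins and removes the ligand from the medium. Both systems have been studied in ovarian cancer for their part in growth, invasion and spread in the peritoneum.

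Levels are the authors' variance-stabilised values, which follow log2 for abundant genes and flatten towards a floor of 4.86, the lowest value in the table. Normalised counts recovered from those values are given beside them, since a difference on the stabilised scale understates the fold of a low gene. Depth on genes was lowest in vehicle library 6, at 24.0 megareads, while the rest had 31.2 to 48.7. From a value of 10 up the deposited values were rounded to 0.1, so recovered counts there carry that rounding. In RNA from whole cultures, fewer cells expressing a gene and less of its RNA per cell cannot be told apart. Known markers of the line's origin were partly present: of 9 listed, 7 were measured, and CDH1 and MUC16 were not analysed here. PAX8, a transcription factor of the Müllerian epithelium, had a vehicle level of 12.70 ± 0.35 (SD, n = 3). The keratins KRT7, KRT8 and KRT18 had 11.9 ± 0.53, 14.13 ± 0.32 and 14.33 ± 0.49, and WT1 had 7.6 ± 0.11. EPCAM stayed near the floor at 5.61 ± 0.07, and the keratin KRT19 was also low, between 4.86 and 5.94 in all libraries. Of 5 leukocyte markers, 3 were measured, none above 5.91 in any library.

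FGFBP1 (ENSG00000137440, chromosome 4, 15935569 to 15938740, minus strand, GRCh38) was the gene of the FGF system chosen for a large difference from vehicle. Its sequence is shown because the drug acts through cyclic AMP and the proximal promoter is where a cyclic AMP response element would first be looked for. The 250 bases upstream of the RefSeq start (GRCh38.p14, chr4:15938741-15938990, minus strand) overlap no exon and read, 5′ to 3′:

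FGFBP1: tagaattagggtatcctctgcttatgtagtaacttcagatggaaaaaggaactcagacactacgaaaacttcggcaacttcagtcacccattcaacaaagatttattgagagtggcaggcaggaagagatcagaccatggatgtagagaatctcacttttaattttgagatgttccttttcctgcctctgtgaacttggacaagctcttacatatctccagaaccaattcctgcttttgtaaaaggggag

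FGF1: cagatgccgggcCGTCAaaaatgatgaca

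The second line is a stretch of 1 of the 4 RefSeq promoter windows of FGF1 (chr5:142644354-142644382, minus strand), with the match to the half-site in capitals. RefSeq windows of 250 bases before to 50 after a start were searched on both strands for the cyclic AMP response element TGACGTCA, its half-site TGACG, which reads CGTCA on the other strand, and the AP-1 motif TGANTCA. The half-site lies within the full element. Over all 35116 windows these were found in 1.85%, 24.6% and 7.71%. Of the 15 windows found for 8 of the 9 genes, 0, 5 and 1 held them, and the FGFBP1 window held none of the 3. Those letters are not in that window; nothing follows from this about any factor. The 5 windows with a half-site belonged to FGF1, FGF2, CXCR4 and CXCL12. Overlapping windows of CXCR4 held the same site, which lies in an exon and is thus counted more than once. ACKR3 was named only.

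The carrier FGFBP1 was higher with dose in each of the 3 label numbers. In number 6 its level was 5.94 in vehicle and 7.02, 9.19 and 9.38 at 1, 5 and 10 µM. In number 8 the levels were 7.10, 8.53, 10.5 and 11, and in number 11 they were 7.15, 8.75, 11 and 11.2. Every treated library lay above the vehicle library of its own number, and the libraries at 5 and 10 µM lay above all 3 vehicle libraries; at 1 µM number 6 lay below the vehicle libraries of 8 and 11.

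As normalised counts, FGFBP1 went from 17 to 609.3 between vehicle and 10 µM in number 6. The same counts were 85.1 and 1990.2 in number 8, and 89.8 and 2294.7 in number 11. The ratio over the vehicle library of the same number at 10 µM was thus 35.9, 23.4 and 25.6 in numbers 6, 8 and 11, against 4.6, 3.69 and 4.17 at 1 µM and 31.1, 16.3 and 22.2 at 5 µM. The ratios lay much closer together than the counts they came from. The vehicle library of number 6 held 11 reads of FGFBP1 (exact Poisson 95% interval 5.49 to 19.7), so its ratios are the least precise, and such intervals cover counting error only.

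FGFBP1 was chosen partly for its spread between cultures, so that spread is described here without a test. It lay between label numbers more than in the size of the difference from vehicle. The vehicle SD was 0.68 on the stabilised scale, while the difference of 10 µM from the vehicle library of the same number was 3.80 with an SD of 0.32 over the 3 numbers. At 1 and 5 µM the differences were 1.37 with an SD of 0.27 and 3.50 with an SD of 0.31. In the model of dose group alone the standard error of each difference was 0.61, and with the label number as a block it was 0.12. The step from 5 to 10 µM was 0.30, with the same direction in 3 of 3 numbers, so most of the difference was already present at 5 µM.

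**Figure D1:**
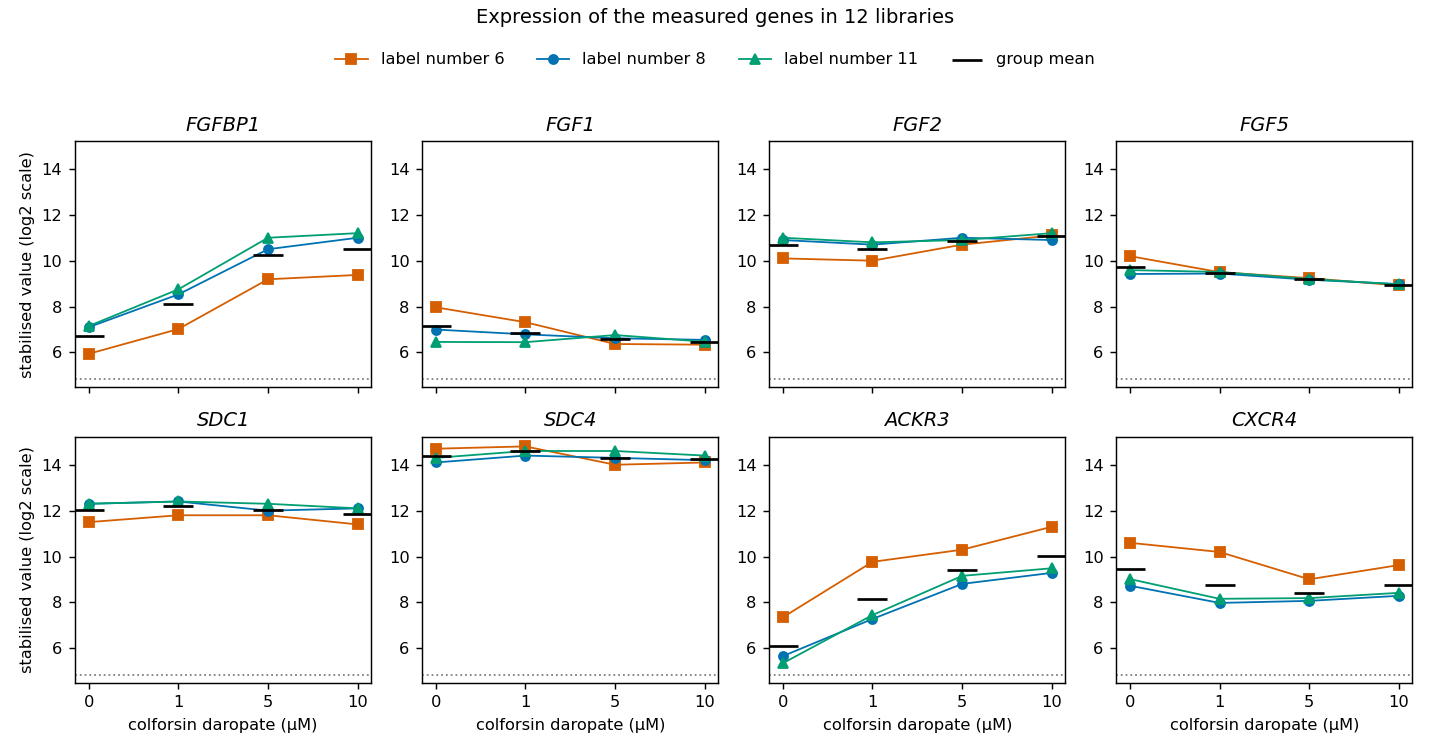
Stabilised values (log2 scale, vertical axis) of the 8 measured genes in all 12 libraries by dose of colforsin daropate (horizontal axis, not to scale). Lines join libraries of the same label number, bars are group means (n = 3) and the dotted line is the floor of 4.86. FGFBP1 and ACKR3 climb with dose in all 3 numbers, with number 6 lowest for FGFBP1 and highest for ACKR3; the other 6 genes move by 1.63 or less between vehicle and 10 µM in any number.

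The FGF ligands FGF1, FGF2 and FGF5 differed from each other in level and in direction. FGF2 was the most abundant of the 3 in vehicle, at 240.3 ± 75.8 normalised counts per kilobase of exon (SD, n = 3), followed by FGF5 at 136.7 ± 43.7 and FGF1 at 19.7 ± 15.5. The libraries of FGF2 and FGF5 overlapped on that scale, and those of FGF5 and FGF1 did not.

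FGF5, a ligand best known for ending the growth phase of the hair follicle, was the 1 of the 6 tested genes that passed the threshold. FGF5 (ENSG00000138675, chromosome 4, 80266599 to 80336680, plus strand) had vehicle levels of 10.2, 9.42 and 9.59 in numbers 6, 8 and 11. At 5 µM the levels were 9.24, 9.17 and 9.20, and at 10 µM they were 8.92, 8.98 and 8.97. No library at 5 or 10 µM reached the lowest vehicle library, and the treated libraries lay within 0.07 of each other at each of these doses, where the vehicle libraries spanned 0.78. FGF5 fell by 0.53 ± 0.15 (SE) at 5 µM (limma, Benjamini-Hochberg adjusted p = 0.038) and by 0.78 ± 0.15 at 10 µM (adjusted p = 0.00407), where its mean count was 1.86-fold lower. At 1 µM the difference was −0.25 ± 0.15 (adjusted p = 0.474), and at that dose number 8 lay 0.02 above its vehicle library.

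The larger part of the FGF5 spread came from vehicle library 6. Without the libraries of number 6, FGF5 fell by 0.32 at 5 µM (adjusted p = 0.0177) and by 0.53 at 10 µM (adjusted p = 0.00198). The call at 5 µM was lost when any 1 of 8 of the 12 libraries was left out, with adjusted p from 0.0541 to 0.102, the highest without the 5 µM library of number 8. The call at 10 µM was kept without any single library, and lost without all libraries of number 8 (−0.95, adjusted p = 0.0511) or of number 11 (−0.86, adjusted p = 0.079). FGF5 shares 136 exonic bases (2.27% of its exons) with CFAP299 on the same strand, a gene near the floor here with values of 5.13 to 5.72.

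FGF1, a ligand that can bind all FGF receptors and has no signal peptide, was the lowest of the 3. FGF1 (ENSG00000113578, chromosome 5, 142592178 to 142698070, minus strand) had levels of 7.97, 7 and 6.46 in the vehicle libraries of numbers 6, 8 and 11. At 10 µM the levels were 6.34, 6.55 and 6.47. The 3 numbers thus differed in vehicle and stood together at 10 µM: number 6 was 1.63 lower, number 8 was 0.45 lower and number 11 was 0.01 higher. The difference at 10 µM was −0.69 ± 0.32 (adjusted p = 0.148). FGF1 passed the threshold only when vehicle library 11, the lowest of its group, was left out (−1.03, adjusted p = 0.035).

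FGF2, a ligand released without the classical secretory pathway, did not pass the threshold against vehicle at any dose. FGF2 (ENSG00000138685, chromosome 4, 122826708 to 122898236, plus strand) had vehicle levels of 10.1, 10.9 and 11 in numbers 6, 8 and 11, and 11.1, 10.9 and 11.2 at 10 µM. The difference at 10 µM was 0.40 ± 0.24 (adjusted p = 0.264), and it came from number 6, which was 1.00 higher, while number 8 was level and number 11 was 0.20 higher. At 1 and 5 µM the differences were −0.17 (adjusted p = 0.800) and 0.20 (adjusted p = 0.645), and they became 0.08 without the 1 µM library of number 6 and −0.08 without vehicle library 6. FGF2 shares 804 exonic bases (11.87% of its exons) with NUDT6 on the opposite strand, and whether the counting used strand is not given in the sources used here. NUDT6 was 9.15 ± 0.23 in vehicle and 9.43 ± 0.09 at 10 µM, a difference of 0.28 (adjusted p = 0.161).

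The syndecans were the most abundant of the genes described. SDC4 (ENSG00000124145, chromosome 20, 45325288 to 45348424, minus strand), a syndecan of focal adhesions, had 8186.3 ± 1783.9 normalised counts per kilobase in vehicle. SDC1 (ENSG00000115884, chromosome 2, 20200797 to 20225433, minus strand), the main syndecan of epithelia, had 1187.6 ± 344.7. At 10 µM the differences were −0.13 ± 0.18 for SDC4 (adjusted p = 0.642) and −0.17 ± 0.26 for SDC1 (adjusted p = 0.695).

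SDC4 levels were 14.7, 14.1 and 14.3 in the vehicle libraries of numbers 6, 8 and 11, and 14.1, 14.2 and 14.4 at 10 µM. Number 6 was thus 0.60 lower at 10 µM and the others were 0.10 higher. SDC1 levels were 11.5, 12.3 and 12.3 in vehicle and 11.4, 12.1 and 12.1 at 10 µM, lower by 0.10 to 0.20 in 3 of 3 numbers, which is 1 or 2 rounding steps. Neither gene passed the threshold at 1 or 5 µM, where the lowest adjusted p was 0.587, for SDC4 at 1 µM. The sign for SDC4 turned on number 6: without it SDC4 was 0.25 and 0.10 higher at 5 and 10 µM. SDC1 kept its sign at 10 µM without number 6 (−0.20), and was 0.07 higher where the 10 µM library of number 6 alone was left out and its vehicle library kept.

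ACKR3 (ENSG00000144476, chromosome 2, 236567787 to 236582358, plus strand), the scavenging receptor for CXCL12, was higher with dose in all 3 numbers. Its levels in number 6 were 7.35 in vehicle and 9.77, 10.3 and 11.3 at 1, 5 and 10 µM. In number 8 they were 5.66, 7.28, 8.81 and 9.29, and in number 11 they were 5.35, 7.45, 9.16 and 9.49. The libraries at 5 and 10 µM lay above all 3 vehicle libraries; at 1 µM that of number 8 lay 0.07 below vehicle library 6. ACKR3 had the largest difference of the 8 measured genes at 10 µM, 3.91 ± 0.76, with FGFBP1 next at 3.80 ± 0.61.

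In counts, ACKR3 differed between the numbers in vehicle far more than FGFBP1 did. The vehicle counts were 110.1, 9.09 and 3.34 in numbers 6, 8 and 11, resting on 71, 10 and 4 reads. At 10 µM they were 2463.5, 569.1 and 662.0. Exact Poisson 95% intervals on the 2 smallest vehicle values were 4.80 to 18.4 reads and 1.09 to 10.2 reads, so the vehicle level of ACKR3 rested on few reads in numbers 8 and 11 and on more in number 6. The ratio of 10 µM to vehicle was 22.4, 62.6 and 198.4 in numbers 6, 8 and 11. At 1 µM the ratios were 7.41, 11.3 and 36.4, and at 5 µM they were 10.9, 43.2 and 154.4. The ratio of number 11 has a denominator of 4 reads and is the least certain of the 3.

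On the stabilised scale, which damps low counts, the difference of ACKR3 from the vehicle library of the same number was nearly equal in the 3 numbers. At 10 µM it was 3.91 with an SD of 0.26, where the vehicle SD was 1.08. At 1 and 5 µM it was 2.05 with an SD of 0.40 and 3.30 with an SD of 0.45. With the label number as a block the standard error was 0.18. The size depends on the scale: voom, which works on log counts, gave 4.11, 5.63 and 6.27 at 1, 5 and 10 µM.

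**Figure D2:**
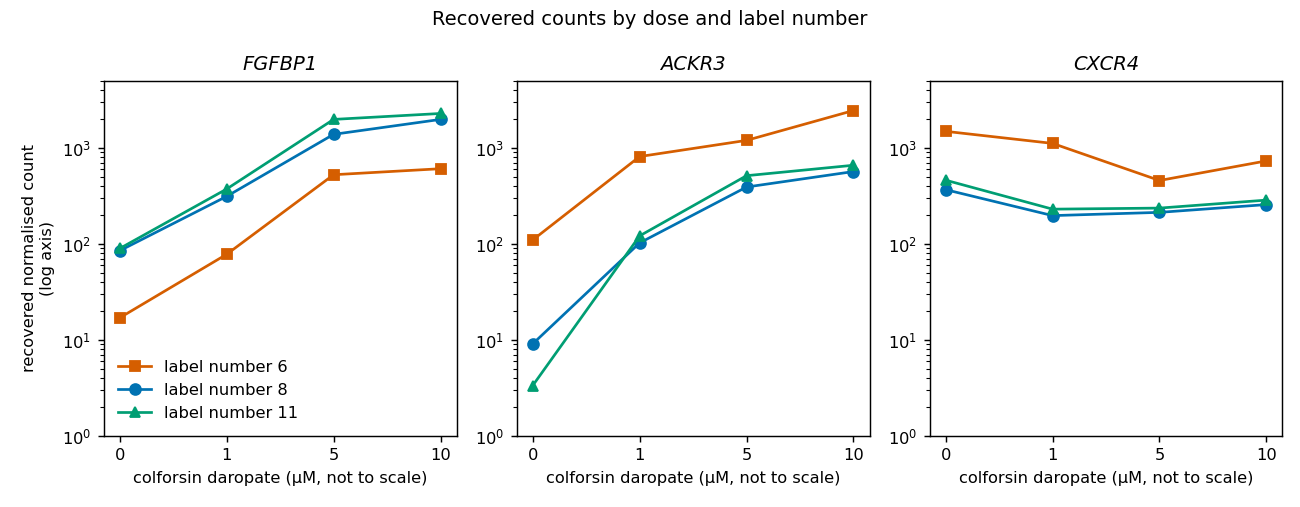
Recovered normalised counts (vertical log axis) of FGFBP1, ACKR3 and CXCR4 by dose (horizontal axis, not to scale), with each label number as a line. The vehicle counts of ACKR3 run from 3.34 to 110.1, those of FGFBP1 from 17 to 89.8 and those of CXCR4 from 368.4 to 1494.4. The lines of numbers 8 and 11 lie close together in all 3 panels, except for ACKR3 in vehicle (9.09 and 3.34).

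CXCR4 (ENSG00000121966, chromosome 2, 136114349 to 136118165, minus strand), the signalling receptor for CXCL12, was lower in the treated library of every number at every dose. Its vehicle levels were 10.6, 8.73 and 9.02 in numbers 6, 8 and 11. At 1 µM they were 10.2, 7.98 and 8.16, at 5 µM 9.01, 8.07 and 8.19, and at 10 µM 9.63, 8.29 and 8.42. In every number the level at 10 µM was above that at 5 µM, and the groups overlapped at each dose because number 6 stood apart.

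The test of CXCR4 turned on how that spread was treated. In the model of dose group alone the differences were −0.67 ± 0.62, −1.03 ± 0.62 and −0.67 ± 0.62 at 1, 5 and 10 µM (adjusted p = 0.67, 0.313 and 0.485). With the label number as a block the standard error was 0.19 and the adjusted p-values were 0.0428, 0.00177 and 0.0165. In the model of dose group alone without number 6, the differences were −0.80, −0.74 and −0.52, with adjusted p = 0.0104, 0.0049 and 0.0161. Without number 8 they were −0.63, −1.21 and −0.78, and without number 11 they were −0.57, −1.12 and −0.70. None of those passed, with adjusted p from 0.527 to 0.992. In mean counts CXCR4 was 2.56-fold lower at 5 µM and 1.82-fold lower at 10 µM.

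CXCR4 and ACKR3 therefore changed places in abundance. Per kilobase of exon, CXCR4 had 348.5 ± 280.9 normalised counts in vehicle and ACKR3 18.1 ± 26.6, and at 10 µM CXCR4 had 191.8 ± 120.4 and ACKR3 545.4 ± 473.0. The libraries of the 2 genes did not overlap in vehicle (165.6 to 671.9 for CXCR4 against 1.48 to 48.8 for ACKR3) and did at 10 µM (115.8 to 330.6 against 252.0 to 1091.0). Within each label number the order was CXCR4 first in vehicle and ACKR3 first at 10 µM.

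Across the 8 measured genes, the order by mean count per kilobase in vehicle was SDC4, SDC1, CXCR4, FGF2, FGF5, FGFBP1, FGF1 and ACKR3. Neighbours whose libraries did not overlap were SDC4 and SDC1, SDC1 and CXCR4, and FGF5 and FGFBP1; the other neighbours did not differ beyond their spread. At 10 µM the order was SDC4, FGFBP1, SDC1, ACKR3, FGF2, CXCR4, FGF5 and FGF1. FGFBP1 stood at 1200.4 ± 660.9 per kilobase there, against 47.1 ± 30.0 in vehicle, and its libraries overlapped those of SDC1 at 1048.5 ± 271.0. Lengths are the union of all annotated exons, so a gene with unused exons is placed too low.

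None of the 8 measured genes was near the floor by its mean over 12 libraries, taken as less than 1 above it; of all genes, 20.6% were. In single libraries ACKR3 came within 1 of the floor in vehicle 8 and vehicle 11, and FGFBP1 was 1.08 above it in vehicle 6. FGF1 had the lowest mean, 6.76, and stayed 1.48 or more above the floor in every library. SDC4, SDC1 and FGF2 were at least 5.14 above it throughout.

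Against the whole table, the counts of called genes among these were not unusual. At 1, 5 and 10 µM, 1.80%, 15.1% and 22.6% of the 17767 genes tested were called against vehicle; of the 6 tested genes, 0, 1 and 1 were called, in each case FGF5 and lower. Genes called lower made up 0.613%, 7.44% and 11.4% of those tested, and genes called higher 1.18%, 7.67% and 11.2%. The groups did not overlap with vehicle for 18.3%, 29.2% and 33.8% of all genes. Of the 6 tested genes this held for FGF5 alone, at 5 and 10 µM. FGFBP1 and ACKR3, also among the 8 measured genes, did not overlap at those doses either. They were chosen for a large difference from vehicle, so they are not set beside these shares. With the label number as a block, 12%, 30.6% and 38.4% of genes were called and 1, 2 and 2 of the 6, CXCR4 and then CXCR4 with FGF5. The median difference of the 8 genes at 10 µM was −0.15, beside 0.00 over all genes. Since the genes were chosen with earlier results of these data known, these counts are a description.

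Between doses, 0.310% of genes were called from 1 to 5 µM and 0.00% from 5 to 10 µM (where 601 genes had an unadjusted p under 0.05 and voom called 0), and none of the 6 tested genes was called in either step. With the block the shares were 5.19% and 0.00563%, again with none of the 6. FGFBP1, chosen for its large difference, was higher at 5 than at 1 µM by 2.13 with no overlap between the groups. For ACKR3 the same step was 1.26 and the groups overlapped. Between 1 and 5 µM, 14% of all genes did not overlap. FGF5 did not overlap between 1 and 5 µM or between 5 and 10 µM, with differences of −0.28 (adjusted p = 0.587) and −0.25 (adjusted p = 1); between 5 and 10 µM, 6.87% of all genes did not overlap.

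**Figure D3:**
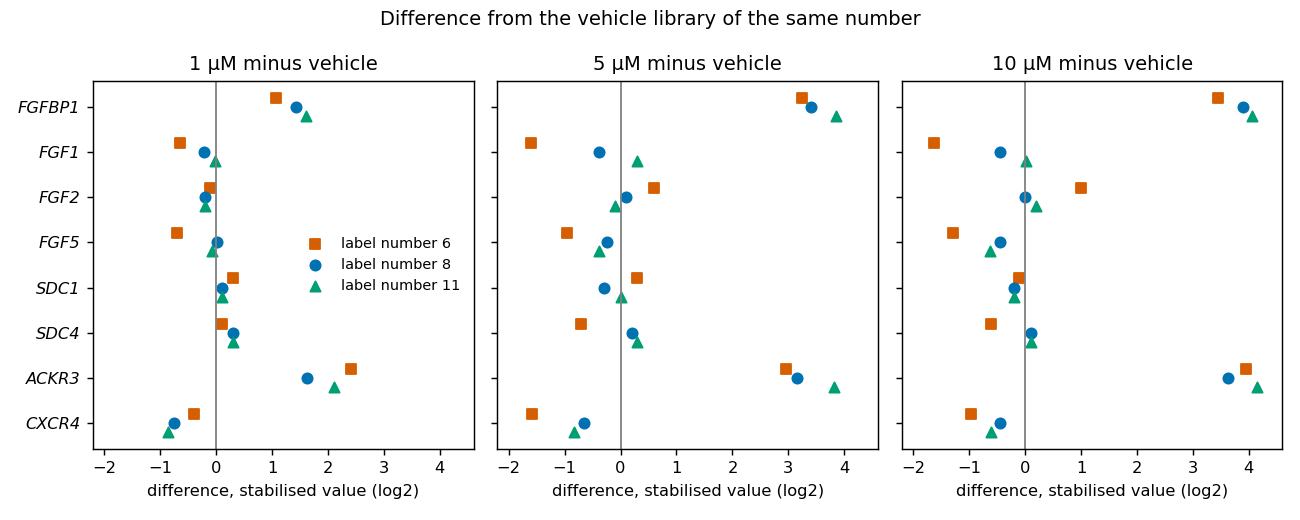
Difference of each treated library from the vehicle library of the same label number (stabilised log2 scale, horizontal axis) for the 8 measured genes at 1, 5 and 10 µM. Points are single libraries, not means. FGFBP1 lies at 3.44 to 4.05 and ACKR3 at 3.63 to 4.14 at 10 µM, and CXCR4 lies left of 0 in all 9 pairs. Number 6 lies furthest out for FGF1, FGF2, FGF5, SDC4 and CXCR4 at 5 and 10 µM.

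Levels of several of these genes differed between libraries of different label number at matched dose. ACKR3 averaged 9.68 over the 4 libraries of number 6, against 7.76 and 7.86 in numbers 8 and 11, and number 6 was above both at 4 of 4 doses. FGFBP1 showed the opposite order, with means of 7.88, 9.28 and 9.52, and number 6 was below both at 4 of 4 doses. Neither was tested, since their spread between cultures was a reason for choosing them.

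Among the 6 tested genes, 3 differed between label numbers in the limma model of dose group plus number. CXCR4 averaged 9.86 in number 6, 8.27 in number 8 and 8.45 in number 11 (adjusted p = 5.51e-05), with number 6 above both at 4 of 4 doses. SDC1 averaged 11.62, 12.20 and 12.28 (adjusted p = 0.000165), with number 6 below both at 4 of 4 doses, and FGF2 averaged 10.48, 10.88 and 10.98 (adjusted p = 0.0296). FGF1, FGF5 and SDC4 did not pass, with adjusted p = 0.31, 0.335 and 0.402. Of all genes, 30.8% were called for the label number.

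Other measures moved with the label number too. The median level of 19 measured G2/M and mitosis genes was 11.4 in vehicle library 6, 9.21 in vehicle 8 and 8.82 in vehicle 11, and 9.46, 9.56 and 9.28 at 10 µM. Vehicle library 6 was also the shallowest, at 24.0 megareads. Number 6 and the others were thus furthest apart in vehicle and close at 10 µM, as FGF1, FGF2, FGF5 and SDC4 were. The part of these measures in the FGF and chemokine receptor values was not tested.

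By Pearson's correlation of stabilised values over the 12 libraries, the genes most like FGFBP1 were POPDC3 (r = 0.978), STIM1 (0.977), ATP6V0A2 (0.973), ABTB2 (0.970) and FAM86DP (0.968). Those most like ACKR3 were RHOB (r = 0.991), CREG1 (0.991), CDKN1C (0.990), SMAD3 (0.990) and CCDC149 (0.989). RHOB, a small GTPase, was 9.39, 8.24 and 8.33 in the vehicle libraries of numbers 6, 8 and 11 and 11.3, 10.2 and 10.3 at 10 µM, so it shared both the dose order and the higher level of number 6. STIM1, a calcium sensor of the endoplasmic reticulum, was 9.86, 10.1 and 10.1 in vehicle and 10.3, 10.5 and 10.5 at 10 µM, with number 6 lowest as for FGFBP1. FGFBP1 and ACKR3 themselves had r = 0.55. The 12 libraries share doses and label numbers, so these values describe likeness of profile.

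The other genes of these pathways came from 11 lists holding 110 further genes, of which 68 were tested. At 1, 5 and 10 µM, 1, 5 and 10 of the 68 were called higher and 0, 5 and 8 lower. At 1 and 5 µM the called genes are 1.47% and 14.7% of the 68, beside 1.80% and 15.1% of all genes. The 18 called at 10 µM are 26.5% of the 68, beside 22.6% of all genes, and the median difference of the 68 was 0.09. With the label number as a block, 21 were called higher and 14 lower at 10 µM, where 38.4% of all genes were called.

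**Figure D4:**
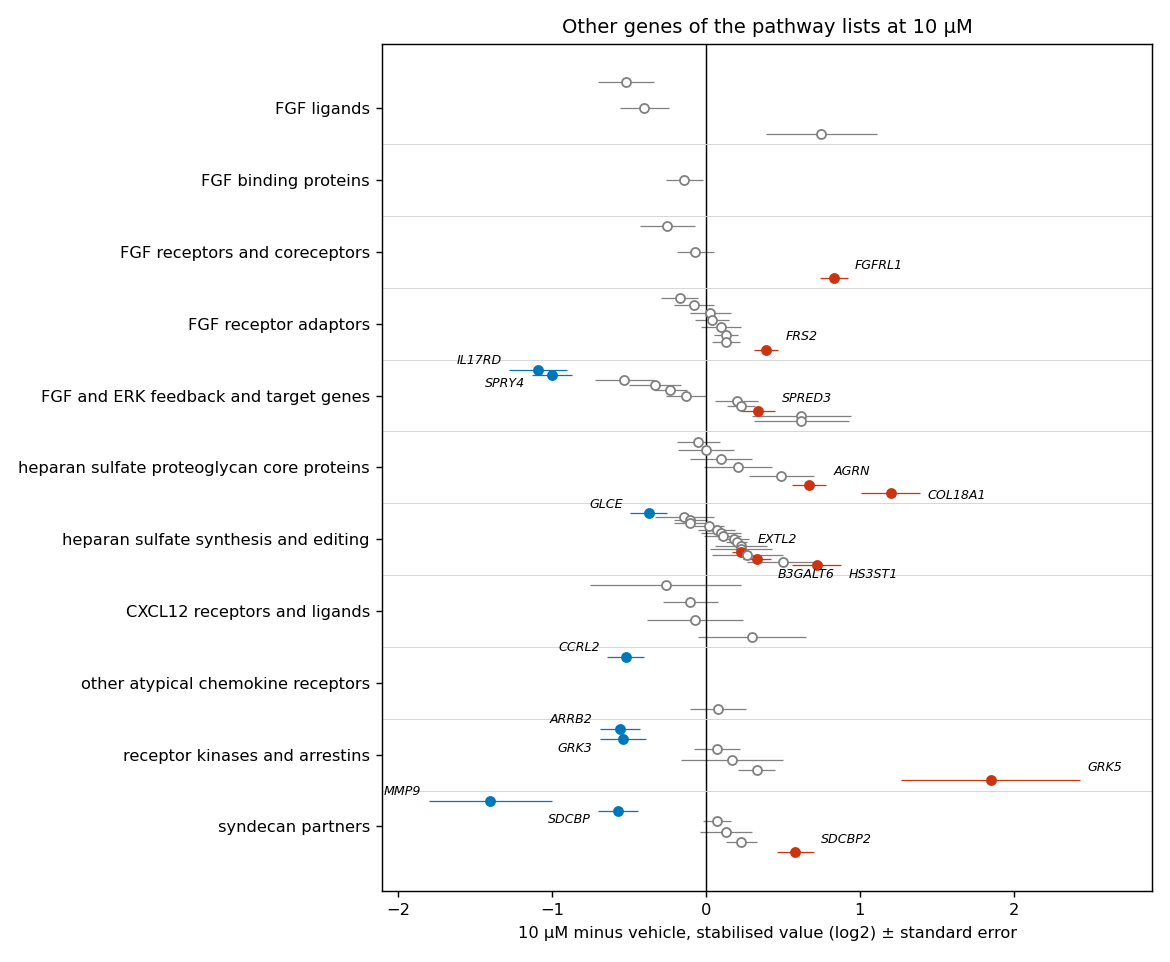
Difference between 10 µM and vehicle (stabilised log2 scale, horizontal axis, ± standard error, n = 3 per group) for the 68 other tested genes of the 11 pathway lists. Filled points passed an adjusted p of 0.05 (red higher, blue lower) and are named; FGFRL1, COL18A1 and GRK5 lie to the right, and SPRY4, IL17RD and MMP9 to the left.

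Among FGF receptors, FGFR1, a receptor tyrosine kinase for most FGFs, was the abundant one, with 12 ± 0.26 in vehicle and a difference of −0.07 ± 0.12 at 10 µM (adjusted p = 0.734). FGFR3 and FGFR4 were near the floor, with vehicle means of 5.37 and 5.70, and were not tested. FGFRL1, a receptor that lacks the kinase domain, was 9.73, 9.89 and 9.98 in the vehicle libraries and 10.8, 10.6 and 10.7 at 10 µM. It rose by 0.83 ± 0.09 (adjusted p = 0.000111), and its groups did not overlap. Of the 8 receptor adaptors tested, 1 was called, beside 22.6% of all genes. FRS2, which docks signalling proteins to activated FGF receptors, rose by 0.39 ± 0.08 (adjusted p = 0.00403). With the block PTPN11, the phosphatase SHP2, was also called, with a difference of −0.17 (adjusted p = 0.339 without and 0.0272 with it).

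Of the other FGF ligands, FGF12, FGF13 and FGF18 were tested, and none passed in the model of dose group alone. In that model 1 passed as lower under quantile normalisation, without vehicle library 6 or without the 5 µM library of number 6. Without vehicle library 6, 1 also passed as higher, and without all of number 6, 1 passed as higher and 2 as lower. FGF18 differed by 0.75 ± 0.36 (adjusted p = 0.166; 0.00536 with the block), FGF12 by −0.40 ± 0.16 (0.0936; 0.0111) and FGF13 by −0.52 ± 0.18 (0.0649; 0.00788). FGF12 and FGF13 belong to the intracellular FGF homologous factors, which are not secreted. FGFBP3, the other carrier measured, was 6.16 ± 0.04 in vehicle and differed by −0.14 ± 0.12 at 10 µM (adjusted p = 0.439).

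The 11 feedback and target genes of FGF and ERK signalling split in direction, with 1 called higher and 2 lower at 10 µM. Of all genes, 11.2% were called higher and 11.4% lower. With the block 5 of the list were higher and 5 lower, where 38.4% of all genes were called. SPRY4, an inhibitor of receptor tyrosine kinase signalling induced by it, was 12.4 in each vehicle library and 11.2, 11.5 and 11.5 at 10 µM. It fell by 1.00 ± 0.13 (adjusted p = 0.000361). IL17RD, a membrane antagonist of FGF signalling also called SEF, fell by 1.09 ± 0.19 (adjusted p = 0.00192), from 8.20, 7.48 and 7.39 to 6.58, 6.76 and 6.47. SPRED3 rose by 0.34 ± 0.11 (adjusted p = 0.0411), a call lost when any 1 of 8 libraries was left out, with adjusted p up to 0.144 without the 10 µM library of number 6. DUSP6, a phosphatase of ERK, differed by −0.53 ± 0.19 (adjusted p = 0.0703; 7.05e-05 with the block). Further genes called with the block were the Sprouty gene SPRY1 (0.62; adjusted p = 0.195 without and 0.00217 with it), ETV1 (0.62; 0.181 and 0.00127), SPRED1 (0.23; 0.077 and 0.0209) and ETV5 (0.20; 0.327 and 0.0122), all higher. SPRY2 (−0.33; 0.193 and 0.00957) and SPRED2 (−0.23; 0.147 and 0.0347) were lower. ETV4 was the 1 gene of the list called in neither fit (−0.13; 0.505 and 0.225).

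Among heparan sulfate proteoglycan core proteins, 2 of the 7 other genes tested were called, both higher, beside 11.2% of all genes called higher. COL18A1, a basement membrane collagen that carries heparan sulfate, rose by 1.20 ± 0.19 (adjusted p = 0.00132), from 10.6, 10.2 and 10.4 to 11.9, 11.6 and 11.3. AGRN, agrin, rose by 0.67 ± 0.11 (adjusted p = 0.00187). The 2 further syndecans, SDC2 and SDC3, differed by −0.05 ± 0.14 and 0.00 ± 0.18 (adjusted p = 0.837 and 1). For 17 heparan sulfate synthesis and editing genes, 3 were called higher and 1 lower, beside 11.2% and 11.4% of all genes. With the block, calls were also made for the glypican GPC1 (0.49; adjusted p = 0.117 without and 0.0436 with it), HS6ST2 (0.50; 0.156 and 0.000289), EXT1 (0.20; 0.0551 and 0.0149) and XYLT2 (0.23; 0.351 and 0.0444), all higher.

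HS3ST1, a 3-O-sulfotransferase, rose by 0.72 ± 0.16 (adjusted p = 0.00838). EXTL2 and B3GALT6, enzymes of chain and linker assembly, rose by 0.23 ± 0.06 (adjusted p = 0.0156) and 0.33 ± 0.09 (adjusted p = 0.025). GLCE, the epimerase that makes iduronic acid, fell by 0.37 ± 0.12 (adjusted p = 0.0469). The last 3 calls were lost when any 1 of 2, 5 and 9 libraries was left out, respectively, with adjusted p up to 0.0563 for EXTL2 (without the 10 µM library of number 11), 0.0726 for B3GALT6 (without that of number 8) and 0.172 for GLCE (without vehicle library 11). The GLCE call was also lost with no filter on low values, under quantile normalisation and with no variance trend.

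On the chemokine side, 0 of the 4 other receptors and ligands tested were called at 10 µM, beside 22.6% of all genes. They were adrenomedullin (ADM), HMGB1, MIF and DPP4, a protease that inactivates CXCL12, with adjusted p from 0.583 to 0.904. DPP4 was 7.89 ± 0.88 in vehicle and differed by −0.26 ± 0.49 at 10 µM (adjusted p = 0.746). At 5 µM it differed by −0.48 ± 0.49 (adjusted p = 0.58, and 0.0382 with the block). Of the other atypical receptors, CCRL2, which presents chemerin, fell by 0.52 ± 0.12 (adjusted p = 0.0104), and ACKR4 differed by 0.08 ± 0.18 (adjusted p = 0.792). The leukocyte markers measured, of which none passed the filter for testing, summed to 12.6 to 19.0 normalised counts in vehicle and 10.8 to 24.5 at 10 µM.

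Of 6 receptor kinases and arrestins, which switch off or redirect receptors such as CXCR4 and ACKR3, 1 was called higher and 2 lower. Over all genes the shares were 11.2% and 11.4%. GRK5 was 9.51, 7.96 and 7.91 in the vehicle libraries and 11.1, 9.83 and 10.0 at 10 µM, with number 6 highest as for ACKR3. It rose by 1.85 ± 0.58 (adjusted p = 0.0395), a call lost when any 1 of 6 libraries was left out, with adjusted p up to 0.145 without the 10 µM library of number 6. ARRB2, beta-arrestin 2, fell by 0.56 ± 0.13 (adjusted p = 0.00941). GRK3 fell by 0.54 ± 0.15 (adjusted p = 0.0216), a call lost without any 1 of 4 libraries, with adjusted p up to 0.0919 without vehicle library 8. GRK2 differed by 0.33 ± 0.12 (adjusted p = 0.0582; 0.000989 with the block).

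Of 6 syndecan partners, 1 was called higher and 2 lower, beside 11.2% and 11.4% of all genes. SDCBP, syntenin-1, an abundant adaptor that binds syndecan tails, was 14.4, 14.7 and 14.8 in vehicle and 14, 14 and 14.2 at 10 µM, and fell by 0.57 ± 0.13 (adjusted p = 0.00841). Its relative SDCBP2 rose by 0.58 ± 0.12 (adjusted p = 0.00536). MMP9, a metalloprotease that can shed syndecans, fell by 1.40 ± 0.40 (adjusted p = 0.0263), a call lost without any 1 of 3 libraries, with adjusted p up to 0.0845 without the 10 µM library of number 8. ADAM17, a sheddase, differed by 0.23 ± 0.10 (adjusted p = 0.117; 0.00419 with the block).

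Among markers of other cell types, COL1A1 and VWF were called at 10 µM in the model of dose group alone. The other fibroblast and endothelial markers tested were not. COL1A1, the fibroblast collagen, was 7.31, 5.83 and 6.24 in the vehicle libraries and 10.4, 8.37 and 8.40 at 10 µM, and rose by 2.60 ± 0.71 (adjusted p = 0.0218; 0.0871 without the 10 µM library of number 6, and lost in 3 of 12 such omissions). Of 7 fibroblast markers, 3 were measured, with summed counts of 43.4 to 188.4 in vehicle and 290.5 to 1346.6 at 10 µM. COL1A1 made up most of that sum, with a mean count of 49.3 in vehicle and 616.9 at 10 µM. The other 2 measured were lower in mean count, PDGFRB with 26.8 and 15.8 and PDGFRA with 20.2 and 13.9. Their differences were −0.33 ± 0.28 for PDGFRB (adjusted p = 0.442; 0.0493 with the block) and −0.18 ± 0.14 for PDGFRA (adjusted p = 0.406). DCN, LUM, COL1A2 and COL3A1 were not analysed here. Of 4 endothelial markers all were measured, with summed counts of 1943.0 to 8041.1 in vehicle and 3940.5 to 4473.6 at 10 µM. VWF fell by 0.84 ± 0.18 (adjusted p = 0.00558). CDH5 was 12.9, 10.9 and 10.8 in vehicle and 12, 12.1 and 11.9 at 10 µM, a difference of 0.47 ± 0.47 (adjusted p = 0.526). PECAM1 differed by 0.22 ± 0.48 (adjusted p = 0.784) and KDR by −0.27 ± 0.23 (adjusted p = 0.456). The median difference of the 4 endothelial markers was −0.02. Of the 5 carcinoma markers tested, 2 were called higher and 2 lower, beside 11.2% and 11.4% of all genes. PAX8 rose by 0.70 ± 0.17 (adjusted p = 0.0108) and KRT7 by 1.13 ± 0.35 (adjusted p = 0.0368). KRT8 fell by 0.83 ± 0.17 (adjusted p = 0.00519) and KRT18 by 0.73 ± 0.21 (adjusted p = 0.0288). WT1, the other marker tested, differed by −0.35 ± 0.15 (adjusted p = 0.129). The KRT7 call was lost without any 1 of 5 libraries (adjusted p up to 0.128, without vehicle library 11). The KRT18 call was lost without any 1 of 4 (up to 0.0717, without the 10 µM library of number 6). The part of these markers in the values of FGFBP1, ACKR3 and the other genes was not tested.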

How the data were processed

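Total RNA depleted of ribosomal RNA was sequenced from 12 libraries, per the labels' protocols. The authors deposited variance-stabilised values on a log2 scale, rounded to 3 significant digits; per the submitters' processing notes, DESeq2 was used with the build GRCh38 (hg38). For the aligner, counting tool, strand setting, annotation release and gene filter, the answer is not given in the sources used here. Of all entries, 21207 are genes and 4 hold reads naming no gene (63.31% to 66.15% of reads), which were left out; 21166 genes matched a symbol and positions come from GENCODE 29.

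Normalised counts and depths were recovered by inverting the stabilising curve: 99.75% of 69228 values below 6.2 matched whole reads within 0.005, against 29.3% with depths given to the wrong libraries. Genes exceeding the floor by more than 1 in 3 or more libraries (17767) were fitted with limma 3.58.1 (R 4.3.3) on 4 dose groups with a variance trend, two-sided, with Benjamini-Hochberg adjustment over all genes tested and a threshold of 0.05. Label numbers were tested in a model of dose group plus number. The fit of dose groups alone was checked on simulated data with independent noise and no difference between label numbers. It recovered most of the largest changes put in. The check set no requirement for smaller changes and did not cover the block fit. Same-number libraries deviated together from their group means (r = 0.316 to 0.777 in 18 pairs, −0.711 to 0.569 in 36 different-number pairs). The numbers were therefore taken to pair the samples, a pairing read from the data and clear for number 6 only. Numbers 8 and 11 were not clearly told apart. Vehicle library 8 had r = 0.569 with the 1 µM library of number 11 and 0.506 with that of number 8. The block fit, which rests on this pairing, is given where it changes a call. Libraries of 1 group are biological replicates by the series' design text.

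The genes and lists were chosen with earlier results of these data known. Named genes are the 9 members and the 5 genes most correlated with FGFBP1 and with ACKR3. From each list the called genes at 10 µM were also named, up to 4 with the lowest adjusted p in each direction. FGFR1, FGFR3, FGFR4, FGF12, FGF13, FGF18, FGFBP3, SDC2, SDC3 and ETV4 were added for their roles after their values were seen. So were ADM, HMGB1, MIF, DPP4, ACKR4, CDH5, PECAM1, KDR, PDGFRA, EPCAM, KRT19 and WT1. The list genes called with the block alone were added for that call, also after their values were seen. Alternatives were another filter, quantile normalisation, no variance trend, voom on recovered reads, the block, and leaving out libraries.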

Additional observations from a re-analysis of the deposited data

How the results depend on the processing

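With the replicate block, the genes called against vehicle numbered 2135 at 1 µM, 5436 at 5 µM and 6824 at 10 µM (319, 2684 and 4015 without it), 922 from 1 to 5 µM (55 without) and 1 from 5 to 10 µM (ALOX5AP; 0 without, where 601 had an unadjusted p under 0.05 and voom called 0). The pathway genes called at 10 µM became 21 higher and 14 lower (10 and 8 without); all genes called without the block remained called with it. Leaving out 1 library, or all libraries of 1 label number, gave 2 to 2173 calls at 1 µM, 137 to 4939 at 5 µM, 599 to 5935 at 10 µM, 0 to 529 from 1 to 5 µM and 0 from 5 to 10 µM. The same omissions gave 1 to 21 pathway genes higher and 1 to 13 lower, and single libraries left 3634 to 5263 genes called for the label number (5479 with all). For the doses against vehicle and the pathway genes, the lowest counts came without all of number 8 or 11 and the highest without all of number 6. For the label number the lowest came without the 1 µM library of number 6. Of the 26 called differences among the genes given by the naming rule, 26 were kept without number 6, 2 without number 8 and 5 without number 11; those fits hold 2 libraries a group. Other filters, quantile normalisation, no variance trend and voom kept each of these counts within 1.5 times. No called difference of a named gene changed sign in any alternative, whereas 7 differences of FGF1, FGF2, SDC1 and SDC4 that did not pass the test did so when a library of number 6, or all of number 6, was left out. The depth limits ACKR3 in vehicle 8 and 11 and FGFBP1 in vehicle 6 most, where 4 to 11 reads stand behind a ratio.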
